A study of Mus musculus with 35 samples.

Results

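The comparison set 5 aortas taken after 14 days of angiotensin II (Ang II) against 6 aortas taken after 14 days of saline, 11 of the 35 arrays of a time course of abdominal aortic aneurysm in mice. These 11 arrays were chosen by sample title alone. All mice were male and ApoE-/-, lacking apolipoprotein E, so the saline controls carried the same deletion and no array held a wild-type aorta. Subcutaneous osmotic minipumps were implanted at 12 to 14 weeks of age and delivered either 1000 ng of Ang II per kg per min or the saline vehicle. The labels call the Ang II tissue at 14 days suprarenal aorta with aneurysm and give no measure of its size. Each array held the RNA of 1 entire suprarenal aorta, and how far surrounding tissue was trimmed is not given in the sources used here. In such bulk tissue fewer cells of a type and less RNA per cell cannot be told apart.

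Ang II is the effector peptide of the renin-angiotensin system. It narrows vessels and raises blood pressure through its type 1 receptor on smooth muscle cells. Given for weeks to hyperlipidaemic mice it produces dissections and aneurysms of the suprarenal aorta, in which medial elastin breaks, macrophages enter, and fibroblasts of the adventitia lay down collagen. The wall's strength rests on fibrillar collagen, its recoil on elastic fibres built on fibrillin scaffolds, and its turnover on metalloproteinases and their inhibitors. Inflammation comes early in this model, and the wall is remodelled later.

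Every value below is a log2 ratio of the aorta, labelled with Cy5, over a universal mouse reference RNA, labelled with Cy3 on the same array. Dyes were never swapped, so only differences between aortas were read. A level of 1 gene cannot be set against that of another. A gene was called when its adjusted p (limma, Benjamini-Hochberg over all 18671 genes tested) was under 0.05. Errors are standard errors of the log2 change unless given as SD. Each aorta counts as 1 replicate. A p-value reflects how much aortas differed within their groups, pooled over the 7 groups of all 35 arrays. It does not rest on the spread of the compared aortas alone.

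Several libraries stood apart before any gene was tested. Ang II replicate 4 showed aorta signal clearly over background for 84.8% of spots, and the other 10 aortas for 51.1% to 62.2%. Ang II replicate 2 carried the highest levels of the hepatocyte, skeletal muscle and adrenal cortex lists (mean log2 ratios of 5.53, 3.34 and 1.86), and saline replicate 6 those of T cells (2.04) and of B cells and plasma cells (1.91). Saline replicate 1 was low in the smooth muscle genes Acta2 (-0.3) and Tagln (-0.21). Defining markers of smooth muscle (Myh11, Cnn1), endothelium (Cdh5, Vwf) and fibroblasts (Dpt, Pi16) were well above background on all 11 arrays. Brown fat was also present on all of them, with Ucp1 from 4.81 to 7.14. Arrays of both groups lay on 4 shared slides, and both scan days held both groups.

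Ang II for 14 days changed 449 genes, 2.4% of those tested. Of these, 210 rose (1.12%) and 239 fell (1.28%). The rises were larger, with a median log2 change of 0.89 against -0.62 for the falls, and 85 rises but 16 falls reached 2-fold. The median over all genes was 0.00143. In 610 genes (3.27%) the 5 Ang II values did not overlap the 6 saline values, among them 133 of the rises and 136 of the falls.

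The number of calls rested on single aortas and on the scaling. Without Ang II replicate 4 it was 73 (0.391%), 48 rises and 25 falls, all of them among the 449. It was 100 without Ang II replicate 3, 248 without Ang II replicate 2, 132 and 196 without saline replicates 1 and 2, and 719 without saline replicate 6. Scaling all arrays to the same spread left 6 calls, all rises. The scanner software's own ratios gave 184 rises and 395 falls, averaging all probes of a gene 197 and 332, and centring each array on its median 35 and 86, after which the median of all genes stood at -0.15. With the levels of kidney, adrenal, white fat and brown fat genes as covariates 186 genes rose and 27 fell. Within scan day 1 there were 180 calls and within scan day 2 there were 3. The 449 genes kept their direction under each of these, except 1 gene under median centring and 2 under probe averaging. They were called on the same arrays, so a kept direction was likely beforehand. Of the 64 named genes called, 22 kept their call without Ang II replicate 4, 25 without Ang II replicate 3, 34 without saline replicate 1 and 42 without saline replicate 2. A smaller set of 62 genes, 43 rises and 19 falls, was called whichever of the 11 aortas was left out.

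**Figure D1:**
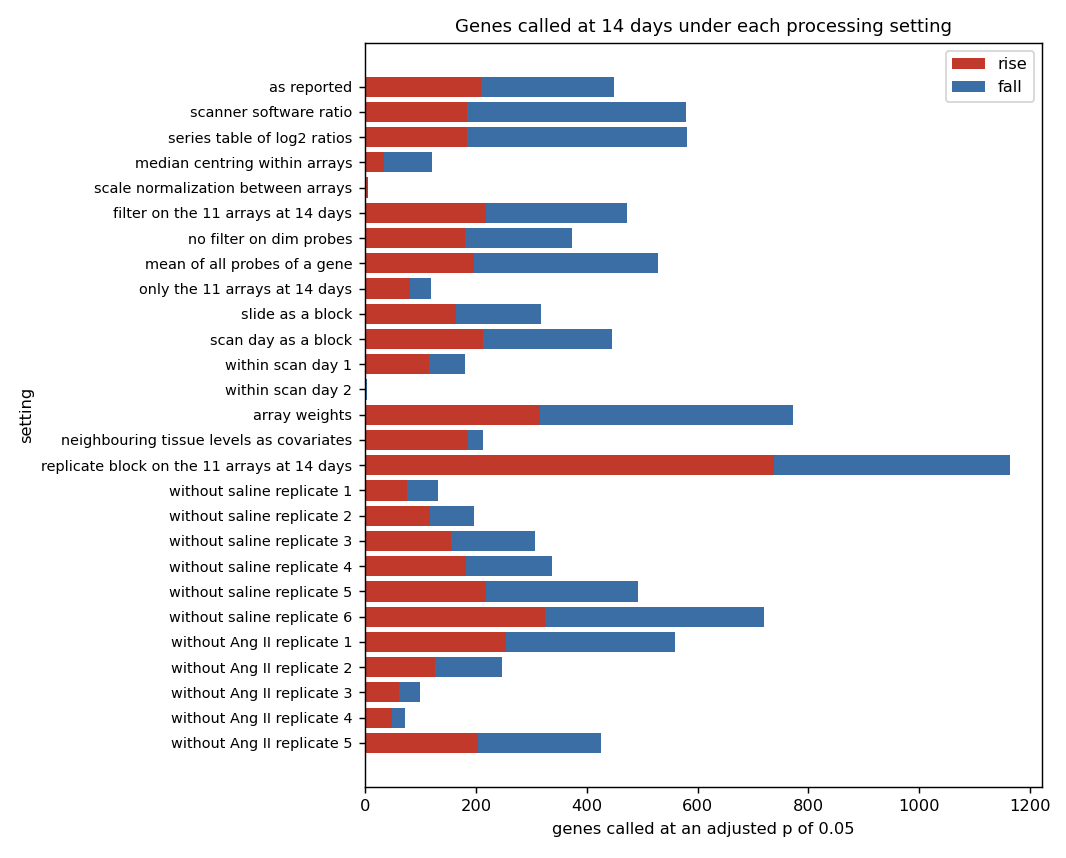
Genes called at 14 days (x axis, number of genes at an adjusted p of 0.05) under each processing setting (y axis), with rises in red and falls in blue. The count runs from 3 within scan day 2 to 1163 with the replicate number as a block, and is 449 as reported.

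Cthrc1, a secreted protein of activated fibroblasts that promotes matrix turnover and cell migration, gave the clearest separation. Its 6 saline aortas ran from -0.27 to 0.3 with a median of -0.16, and the Ang II aortas read 3.55, 3.41, 2.69, 3.95 and 3.02. The groups stood far apart, and no saline value came near an Ang II value. The change was 3.42 (0.39, adjusted p = 7.59e-06). Cthrc1 and Piezo2 were the only named genes called under each of the 27 alternative settings.

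Piezo2 codes for a mechanically gated cation channel best known from sensory neurons. Saline aortas ran from 0.17 to 1.05 with a median of 0.66, and Ang II aortas read 2.23, 2.75, 3.15, 4.11 and 2.81. The groups did not overlap, and Ang II replicate 4 was the highest. Piezo2 rose by 2.37 (0.26, adjusted p = 4.96e-06). A second, dimmer Piezo2 probe was above background on 0 saline and 3 Ang II arrays, with a difference of 0.37. At 7 days the rise was 3.90, and the 14-day rise was smaller by a test of the difference (-1.53, adjusted p = 0.0446).

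Ecrg4 codes for a secreted precursor of growth-regulating peptides. In saline it ran from 0.82 to 2.1 with a median of 1.11, and in Ang II it read 3.85, 5.24, 4.7, 5.72 and 4.12. The lowest Ang II aorta thus lay above the highest saline aorta. Ecrg4 rose by 3.43 (0.53, adjusted p = 0.000883). Cthrc1 and Ecrg4 had nearly the same change, but with the scanner software's ratio Ecrg4 stood at 2.02 and was not called, and Cthrc1 stood at 4.34. Fgf18, a growth factor of cartilage and bone, ran from 0.18 to 1.11 in saline with a median of 0.7 and read 2.14, 3.91, 3.79, 4.62 and 2.7 in Ang II. It rose by 2.72 (0.37, adjusted p = 0.000145), without overlap, and kept its call in 26 of the 27 settings.

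**Figure D2:**
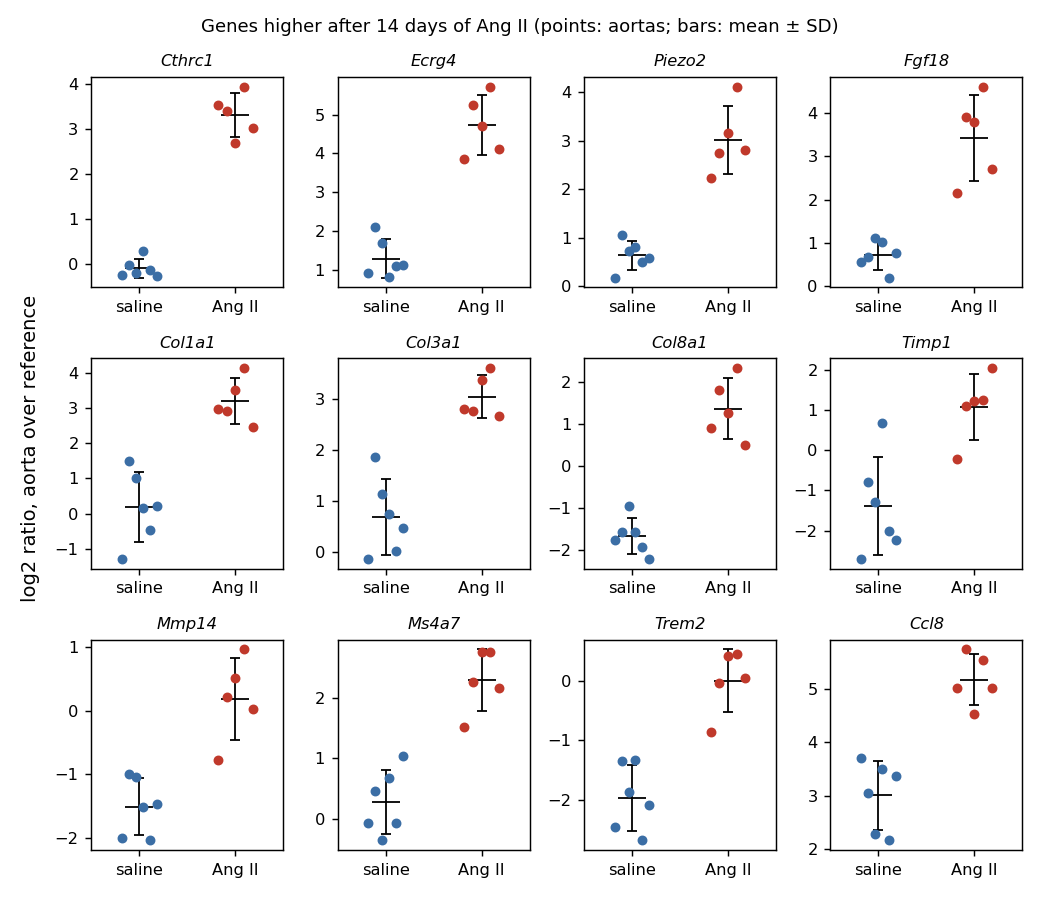
Log2 ratio of aorta over reference (y axis) in 6 saline (blue) and 5 Ang II (red) aortas for 12 genes that rose at 14 days, with the mean and SD of each group in black. In every panel but that of Timp1, where saline replicate 4 reads 0.68 and Ang II replicate 1 reads -0.21, the groups do not overlap. Apart from Timp1 and Mmp14, these genes were chosen among those without overlap.

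Fibrillar collagens, the load-bearing fibres of the adventitia, rose in part. Of 11 measured members 6 rose and 0 fell, 10 had a change above 0, and the median change was 1.71. The mean level of the list ran from -0.2 to 0.75 in saline and from 1.44 to 2.28 in Ang II, so the groups did not overlap. Without Ang II replicate 4, only Col1a1 of the 6 stayed called, and the median was 1.55. Beside this and every list count below stands the share over all genes, 1.12% for rises and 1.28% for falls. All lists were written with earlier results of these data known, so their counts are descriptions.

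Col1a1 codes for the main chain of type I collagen. It ran from -1.29 to 1.5 in saline, with a median of 0.18, and read 2.97, 2.91, 3.52, 4.14 and 2.46 in Ang II. The 6 saline aortas were widely spread, yet all lay below the 5 Ang II aortas. Col1a1 rose by 3.01 (0.61, adjusted p = 0.0096), and its other 2 probes gave differences of 1.87 and 2.38. Its partner chain Col1a2 ran from -1.7 to 0.67 in saline with a median of -0.43, read 1.86, 1.62, 2.57, 2.98 and 1.11 in Ang II, and rose by 2.48 (0.62, adjusted p = 0.0279). Without Ang II replicate 4 its adjusted p was 0.11. Col3a1, the chain of type III collagen, a protein whose loss causes arterial rupture, ran from -0.14 to 1.86 in saline with a median of 0.6. It read 2.82, 2.77, 3.38, 3.62 and 2.67 in Ang II. The groups did not overlap, and Col3a1 rose by 2.37 (0.53, adjusted p = 0.0172).

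The other called members were Col11a1 at 2.37, Col5a1, which nucleates type I fibrils, at 1.71, and the cartilage collagen Col2a1 at 2.17. A second Col2a1 probe, above background on all 11 arrays, differed by 0.29. Col5a2 and Col5a3, at 1.26 and 1.03, did not pass.

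The promoters of the collagen genes that rose are shown because these genes moved together. A RefSeq promoter table (GRCm38.p6) held entries for 12248 of the genes tested and for 4 of the 6 called fibrillar collagens. The 250 bases before the start are printed 5′ to 3′ on the gene's strand for Col1a2 (chr6:4505368-4505617, + strand), Col3a1 (chr1:45311288-45311537, + strand) and the short-chain collagen Col8a1 (chr16:57754738-57754987, - strand). Capitals mark matches on either strand to 4 motifs. The first is the box of nuclear factor Y, spelled CCAAT. The next is the core promoter box bound by the general transcription machinery, spelled TATAAA. The third is the site of the dimeric Fos and Jun factor AP-1, searched as TGANTCA. The last is the element bound by Smad proteins, the carriers of TGF-beta signals, searched as CAGACA.
Col1a2: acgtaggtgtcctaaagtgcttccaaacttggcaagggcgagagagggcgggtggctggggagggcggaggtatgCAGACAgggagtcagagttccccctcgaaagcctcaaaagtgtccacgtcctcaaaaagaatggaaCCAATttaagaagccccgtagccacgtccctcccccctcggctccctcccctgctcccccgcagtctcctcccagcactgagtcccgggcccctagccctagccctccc
Col3a1: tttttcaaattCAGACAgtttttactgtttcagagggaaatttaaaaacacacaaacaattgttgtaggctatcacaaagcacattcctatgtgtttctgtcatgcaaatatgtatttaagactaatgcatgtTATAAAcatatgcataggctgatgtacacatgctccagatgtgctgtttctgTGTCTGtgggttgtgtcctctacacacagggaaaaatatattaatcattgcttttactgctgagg
Col8a1: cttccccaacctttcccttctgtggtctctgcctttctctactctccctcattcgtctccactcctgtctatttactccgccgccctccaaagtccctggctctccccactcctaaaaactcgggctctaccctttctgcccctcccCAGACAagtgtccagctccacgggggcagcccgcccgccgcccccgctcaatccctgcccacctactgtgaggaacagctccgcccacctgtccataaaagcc
Col1a2 held 1 CCAAT match, beginning 109 bases before the start, and 1 Smad element at 175 bases. Col3a1 held 1 TATAAA match at 117 bases and 2 Smad elements, at 239 bases and, on the other strand, at 65 bases. Col8a1 held 1 Smad element at 103 bases. CAGACA occurred in 23% of the 135 promoters matched to rises, in 12.9% of the 163 matched to falls, in 13.6% of those of genes tested and in 17.1% of all 27025 promoters. CCAAT occurred in 29.6%, 31.3%, 35.8% and 34.5% of the same sets, TATAAA in 10.4%, 4.29%, 8.13% and 13%, and TGANTCA in 5.93%, 3.07%, 4.91% and 6.87%. These shares describe letters only and were not tested.

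Other collagens split by family. Among basement membrane and short-chain collagens 2 of 10 rose, with a list median of 0.09 that was -0.08 without Ang II replicate 1. Both were type VIII chains, which form hexagonal networks around smooth muscle and endothelial cells. Col8a1 ran from -2.21 to -0.94 in saline with a median of -1.66 and read 0.9, 1.81, 1.26, 2.34 and 0.51 in Ang II. It rose by 3.03 (0.49, adjusted p = 0.00146) without overlap, and Col8a2 rose by 2.29 (0.51, adjusted p = 0.0172). The type IV chains Col4a1 and Col4a2 of basement membranes stood at 0.12 and -0.087, neither of them called. Of 13 fibril-associated and beaded collagens 3 rose (median 0.53), namely Col12a1 and Col16a1, both at 1.58, and Col20a1 at 0.53. Leaving out Ang II replicate 4 kept the calls of Col8a1 and Col12a1 among these 5.

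Collagen processing enzymes, which cut, fold and crosslink these chains, were mostly uncalled at 14 days. Of 28 members 2 rose, with a median of 0.43, and 0 without Ang II replicate 4. Bmp1, the protease that removes the procollagen C-terminal propeptide, ran from -0.55 to 0.28 in saline and from 0.67 to 2.03 in Ang II, and rose by 1.47 (0.31, adjusted p = 0.0117). The crosslinking oxidase Loxl2 rose by 1.31 (0.31, adjusted p = 0.0223). Lox itself stood at 0.99 (adjusted p = 0.184), with saline from -2.89 to -0.74 and Ang II from -1.07 to -0.77. Lox had risen by 3.56 at 7 days, and the 14-day effect was smaller by 2.57 in the test of the difference (-2.57, adjusted p = 0.0332).

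Of 18 elastic fibre components 4 rose and 0 fell, with a median of 0.76. Without Ang II replicate 4, 1 of them, Fbn2, stayed called. All 4 code for microfibril or fibulin proteins. The microfibril-associated Mfap2 ran from 1.25 to 2.24 in saline and read 3.74, 3.07, 3.87, 3.98 and 3.12 in Ang II. The groups did not overlap, and it rose by 1.76 (0.42, adjusted p = 0.023). A second Mfap2 probe, above background on 5 saline and 5 Ang II arrays, differed by 0.29. Fbn2, the fibrillin of developing tissue, rose by 1.64 (0.32, adjusted p = 0.0066) and was above background on 2 of 6 saline and 5 of 5 Ang II arrays. Ltbp2, a fibrillin-binding protein, rose by 1.35, and Fbln2 by 0.86. Eln, which codes for elastin, overlapped between groups, at 0.65 (adjusted p = 0.427), and Fbn1, the adult fibrillin, stood at 0.94 (adjusted p = 0.247).

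Metalloproteinases and their inhibitors counted 5 rises and 0 falls among 30 members, with a median of 0.28. Without Ang II replicate 4 the rises were 2, Timp1 and Mmp14. Timp1, a secreted inhibitor, read -2.71 to 0.68 in saline with a median of -1.64, and -0.21, 1.09, 1.22, 1.26 and 2.05 in Ang II. The groups overlapped through saline replicate 4 and Ang II replicate 1. Timp1 rose by 2.47 (0.48, adjusted p = 0.00701), and a second probe differed by 1.22. Mmp14, the membrane-bound collagenase that activates Mmp2, ran from -2.04 to -1.0 in saline with a median of -1.49. It read -0.78, 0.22, 0.51, 0.97 and 0.029 in Ang II, above every saline aorta, and rose by 1.70 (0.33, adjusted p = 0.00623). Mmp2, the gelatinase, rose by 1.60 (0.33, adjusted p = 0.0102), and the smaller rises were the aggrecanase Adamts4 at 0.76 and Mmp19 at 0.62. The macrophage elastase Mmp12 was above background on 1 array in each group, and the gelatinase Mmp9 stood at -0.32 (adjusted p = 0.619).

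Genes of activated fibroblasts rose for 4 of 12, with a median of 0.81, and for 2, Cthrc1 and Ecrg4, without Ang II replicate 4. This list was written with earlier results of these data known, so its count and median describe these genes and test no cell state. Beside Cthrc1 and Ecrg4 these were the matrix protein Cilp, at 1.59 (0.38, adjusted p = 0.0246), and the surface protease Fap, at 1.37 (0.38, adjusted p = 0.0477), which kept its call in 2 of the 11 fits that left out 1 aorta. General fibroblast and adventitial genes had 0 calls among 16, with a median of 0.43. Matricellular proteins and proteoglycans rose for 2 of 26, with a median of 0.56. Ccn4, a Wnt-induced matricellular protein, was at 1.57, and Spon2, a secreted spondin, at 1.35 (0.25, adjusted p = 0.00425). In Spon2 saline replicate 6 at -1.51 lay above Ang II replicate 1 at -1.88. Postn, Tnc and Thbs1, at 0.7, 0.41 and 0.81, did not pass. In cartilage, tendon and bone matrix 2 of 24 rose (median 0.24), Col2a1 and the tendon protein Comp, at 1.77 (0.49, adjusted p = 0.0486). Of the calls in these last 2 lists, Spon2 alone held without Ang II replicate 4.

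Secreted signals formed a short list. Among growth factor ligands 3 of 34 rose and 1 fell, with a median of 0.19. Igf1, insulin-like growth factor, ran from 1.56 to 2.8 in saline with a median of 1.91 and read 2.97, 3.86, 3.03, 3.54 and 2.86 in Ang II. The gap between the groups was narrow but held for every aorta, and Igf1 rose by 1.26 (0.24, adjusted p = 0.00581). Its carrier Igfbp4 rose by 0.99, the only one of 8 binding proteins to be called. The heparin-binding factor Mdk rose by 1.32 (0.37, adjusted p = 0.0478). Fgf13, an intracellular member of its family, fell by 0.85 and was above background on 2 of 5 Ang II arrays. Tgfb1 and Tgfb2, ligands that drive fibrosis, stood at 0.3 and 0.41. Without Ang II replicate 4 the calls of Mdk, Fgf13 and Igfbp4 were lost. Of 24 receptors, Smads and targets of the pathway 0 were called (median -0.3, and 0.07 with the neighbouring tissue covariates).

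Of 20 Wnt ligands and secreted antagonists 3 rose, with a median of 0.28, and without Ang II replicate 4 Sfrp1 was the 1 still called. The ligand Wnt2 ran from 2.37 to 3.16 in saline and from 3.98 to 4.51 in Ang II, and rose by 1.56 (0.37, adjusted p = 0.0216). With the scanner software's ratio Wnt2 stood at 0.63 and was not called. The antagonist Sfrp1 ran from 1.86 to 2.5 in saline and from 3.35 to 3.98 in Ang II, and rose by 1.43 (0.25, adjusted p = 0.00309). A second Sfrp1 probe, above background on 5 saline and 5 Ang II arrays, differed by 0.39. Sfrp4, a second frizzled-related antagonist, rose by 2.14 (0.58, adjusted p = 0.0426) and kept its call in 2 of the 11 fits that left out 1 aorta.

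The 2 macrophage lists held 1 call each at 14 days, where rises made up 1.12% of all genes tested. Of 30 monocyte and macrophage genes 1 rose, 25 had a change above 0 and the median was 0.66. The mean level of the list overlapped between groups, from 0.41 to 1.78 in saline, where replicates 4 and 6 were highest, and from 1.36 to 1.62 in Ang II. The called gene was Ms4a7, a membrane protein of tissue macrophages. It ran from -0.36 to 1.04 in saline with a median of 0.19 and read 1.52, 2.27, 2.76, 2.76 and 2.17 in Ang II. It rose by 2.02 (0.34, adjusted p = 0.00183), and a second probe gave 1.94. Trem2, the lipid-sensing receptor of foamy macrophages, ran from -2.67 to -1.33 in saline and read -0.86, -0.04, 0.41, 0.44 and 0.051 in Ang II. It rose by 1.96 (0.4, adjusted p = 0.00998), the only call among 14 lipid-associated macrophage genes (median 0.19). The pan-macrophage receptor Adgre1 did not overlap but missed the threshold, at 0.9 (adjusted p = 0.0511), and the lysosomal Cd68 stood at 0.76 (adjusted p = 0.173).

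Among 30 cytokines and chemokines 2 rose, with a median of 0.16. Ccl8, a monocyte attractant, ran from 2.16 to 3.7 in saline with a median of 3.2 and read 5.03, 5.75, 4.54, 5.55 and 5.03 in Ang II. All Ang II aortas lay above all saline aortas, and Ccl8 rose by 2.18 (0.41, adjusted p = 0.00592). The alarmin Il33 rose by 1.17 (0.28, adjusted p = 0.0246), with overlap, and by less than at 7 days (-1.64, adjusted p = 0.0465). Ccl2, Il1b and Il6 stood at -0.29, -0.11 and 0.58, none called, and saline replicate 4 had the highest saline value of all 3. Complement had 1 call, C4b at 1.03 (0.22, adjusted p = 0.014), while 14 of its 14 members had a change above 0 and the median was 0.48. The calls of Il33 and C4b were lost without Ang II replicate 4. T cell, B cell and neutrophil lists had 0 calls, with medians of -0.26, -0.32 and -0.2. Without saline replicate 6 the first 2 stood at 0.18 and 0.06, and without saline replicate 4 the third stood at 0.11.

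Contractile smooth muscle genes had 0 calls among 20. Their median was -0.62, with 3 members above 0. It was -0.03 within scan day 1, -0.9 within scan day 2 and 0.27 with the neighbouring tissue covariates. Under every other setting it lay between -0.37 and -0.81. Acta2, smooth muscle actin, ran from -0.3 to 4.35 in saline with a median of 2.6 and read 2.31, 1.55, 1.62, 2.06 and 0.34 in Ang II. The groups overlapped, with saline replicate 1 the lowest of all 11, and the change was -0.74 (0.66, adjusted p = 0.569). Myh11, smooth muscle myosin, stood at 0.38 (adjusted p = 0.61). Among 11 stretch and calcium channel genes 1 rose, Piezo2, and 1 fell, with a median of -0.15. The one that fell, the calcium-activated chloride channel Ano1, ran from 1.03 to 2.01 in saline and read 0.86, 0.48, 0.83, 0.93 and 0.35 in Ang II, a change of -0.98 (adjusted p = 0.0371, and 0.0787 without Ang II replicate 4). Atp2a2, the calcium pump of the sarcoplasmic reticulum, fell by 1.16 (-1.16, adjusted p = 0.0478) and was named after its values were seen. It was not among the 62 genes called whichever aorta was left out.

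The falls included genes of kidney tubule, an organ beside the suprarenal aorta, and genes of many general roles. Of 16 kidney tubule genes 5 fell and 0 rose, with a median of -0.57. Cdh16, a cadherin of tubule epithelium, ran from -0.21 to 2.76 in saline, where replicates 2, 3 and 4 read 2.76, 1.65 and 1.89. It read -0.4, -0.26, -0.57, -0.4 and -0.3 in Ang II, was above background on 1 of those 5 arrays, and fell by 1.46 (-1.46, adjusted p = 0.0216). The endocytic receptor Lrp2 was also above background on 1 of 5 Ang II arrays, so its change of -1.53 (adjusted p = 0.0264) is set against background. Its saline aortas ran from -0.34 to 3.28. Slc34a1, a phosphate carrier, was not well above background on any Ang II array or on 3 of 6 saline arrays and was at least 2.15-fold lower. The list level in saline ran from 0.11 to 1.85 and in Ang II from -0.05 to 0.28, with the high saline values in replicates 2, 3 and 4. These 5 calls were all lost without Ang II replicate 4, where the list median was -0.5. Over all genes 239 fell as reported, and 27 fell with the kidney, adrenal, white fat and brown fat levels together as covariates. The part of the kidney level alone in the other falls was not tested.

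**Figure D3:**
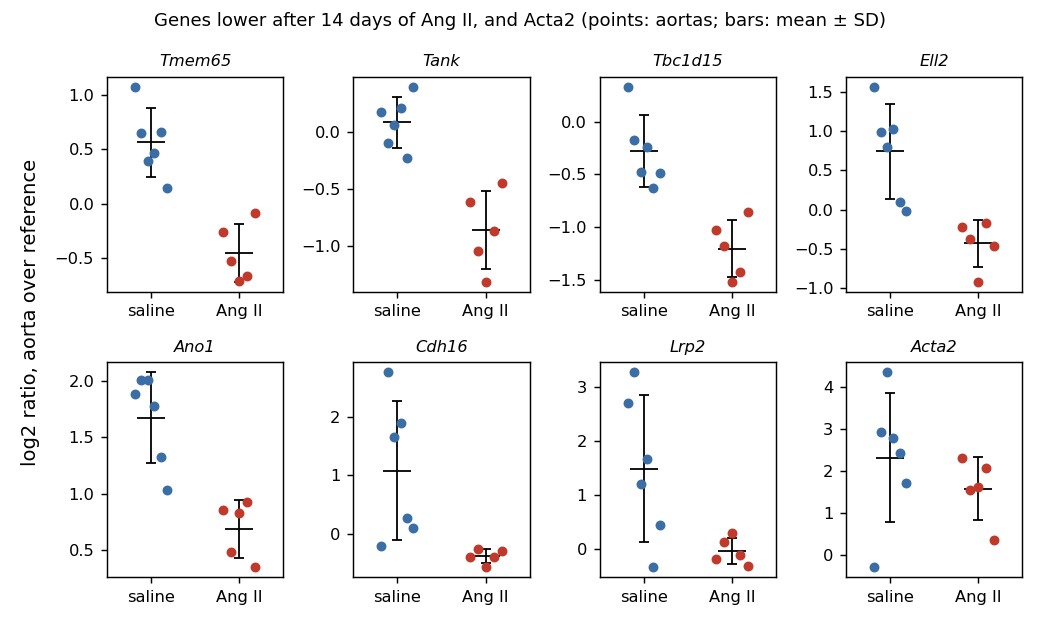
Log2 ratio of aorta over reference (y axis) in 6 saline (blue) and 5 Ang II (red) aortas for 7 genes that fell at 14 days and for Acta2, with the mean and SD of each group in black. Cdh16 and Lrp2 are high in some saline aortas only, and Acta2, with a change of -0.74, overlaps between groups.

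Most other named falls were chosen among those that did not overlap between groups. Tmem65, a membrane protein of the mitochondrial inner membrane, ran from 0.14 to 1.07 in saline with a median of 0.56 and read -0.26, -0.53, -0.71, -0.66 and -0.09 in Ang II. It fell by 1.01 (-1.01, adjusted p = 0.00224), while a second probe above background on all 11 arrays gave -0.1. Tank, an adaptor of the TRAF and NF-kappaB pathway, ran from -0.23 to 0.4 in saline and read -0.62, -1.05, -1.32, -0.87 and -0.45 in Ang II. It fell by 0.95 (-0.95, adjusted p = 0.00773), and a second probe gave -0.66. Tbc1d15, a Rab GTPase-activating protein, fell by 0.92 (-0.92, adjusted p = 0.00481), with a second probe at -0.58.

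The remaining named falls ran from -0.82 to -1.17, and of them Ell2 and Ccni kept their call without Ang II replicate 4. They were the elongation factor Ell2 (-1.17), Ccni (-1.13), the thioesterase Lypla1 (-1.05), the selenoprotein Selenot (-0.95), the transcription factor Camta1 (-0.92), the translocon subunit Sec62 (-0.85), the phosphatase subunit Ppp4r2 (-0.84), the autophagy modulator Dram2 (-0.83), Lin52 of the DREAM complex (-0.82) and the oxysterol-binding Osbpl1a (-0.82). Other probes of Ell2, Camta1 and Selenot that were above background on all 11 arrays differed by 0, 0.36 and 0.21. Such probes differed by -0.19 for Ppp4r2, -0.18 for Sec62 and -0.29 for Osbpl1a. Those of Ccni differed by -0.79, -0.64 and -0.13, and those of Lypla1 by -0.73 and -0.85. Over all falls with such a second probe, 77 of 89 genes had the same sign, with medians of -0.62 for the tested probe and -0.34 for the others. Over the rises it was 48 of 51, with 0.95 and 0.61.

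Of the 62 genes called whichever aorta was left out, 37 of 43 rises and 17 of 19 falls did not overlap between groups. Over all genes 3.27% did not overlap. The 62 were selected by calls on these same values, so their separation adds no support. The rises among them that no list held, named after their values were seen, included Srpx2, a secreted sushi-repeat protein, at 1.70, C1qtnf6 of the C1q and tumour necrosis factor family at 1.86, the sulfatase Arsi at 1.55, Shroom1 at 1.37, the scavenger-receptor protein Ssc5d at 1.22, the protease Pappa, which cleaves insulin-like growth factor binding proteins, at 1.10, and the activin antagonist Fst at 1.15. The non-coding Mirg, of an imprinted miRNA cluster, was at 1.31. The falls among them included Stag2 (-0.78) and Rad21 (-0.77), subunits of cohesin, and Smc6 (-0.54) of a related complex. Others were the nuclear pore protein Nup153 (-0.75), the translation factor Eif4g2 (-0.75), the chromatin remodeller Chd6 (-0.67) and the Polycomb subunit Eed (-0.62).

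**Figure D4:**
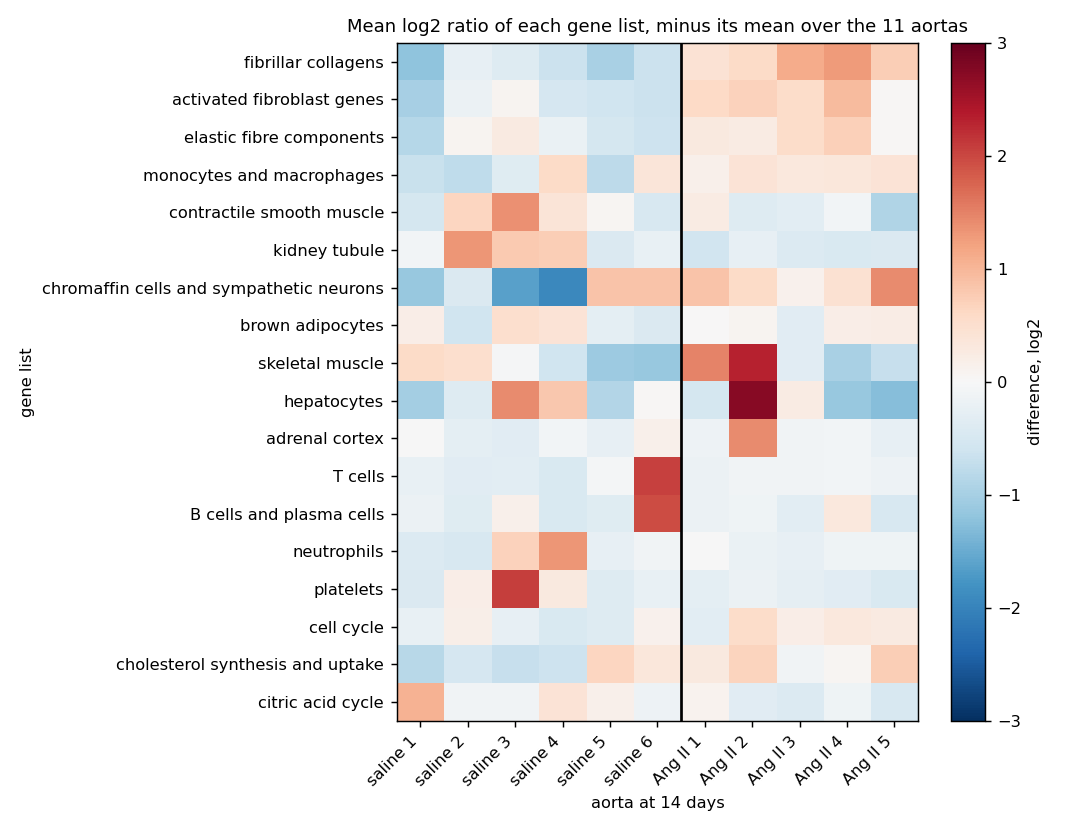
Mean log2 ratio of 18 gene lists (rows) in the 11 aortas at 14 days (columns), each minus the list's mean over the 11 aortas. Fibrillar collagens are higher in all 5 Ang II aortas, while lists of other tissues are high in single aortas, such as T cells in saline replicate 6 and hepatocytes in Ang II replicate 2.

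Lists of nerve, lipid and energy genes had medians away from 0 without a call in any member. Chromaffin cell and sympathetic neuron genes had a median of 1.36, with 19 of 20 above 0. It was 0.61 within scan day 1 and -0.17 with the neighbouring tissue covariates, which include this list. Their mean level was 1.41 to 2.92 in saline replicates 1 to 4, 4.2 and 4.19 in saline replicates 5 and 6, and 3.47 to 4.77 in Ang II, so the groups overlapped. Th, which makes catecholamines, stood at 1.34 (adjusted p = 0.32), and Chga, of secretory granules, at 1.28 (adjusted p = 0.352). Cholesterol synthesis genes had a median of 0.6 with 24 of 24 above 0, and of 0 with the same covariates. Saline replicates 5 and 6 were again at the Ang II level. Citric acid cycle and respiratory chain genes had medians of -0.4 and -0.33, with 1 of 23 and 1 of 29 above 0. Saline replicate 1 had the highest level of both lists, at 2.82 and 2.53. Without it the medians were -0.24 and -0.16, and the list levels overlapped between groups with all 11 aortas. The type 1 receptor Agtr1a stood at 1.09 (adjusted p = 0.434) and ran from 1.96 to 5.48 in saline and from 3.67 to 5.99 in Ang II. Apoe, deleted in all mice, stood at 0.097, and without a wild-type aorta its level checks no label.

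The comparisons at 7 and 28 days used other mice. At 7 days 5069 genes were called (27.1%) and at 28 days 168 (0.9%). Of the 210 genes that rose at 14 days, 167 also rose at 7 days and 38 at 28 days, and 36 at all 3 times. Their median change was 1.21 at 7 days and 0.51 at 28 days. Of the 239 falls, 113 also fell at 7 days and 3 at 28 days, with medians of -0.41 and -0.23. Cthrc1 stood at 5.06, 3.42 and 1.73 at 7, 14 and 28 days, Col1a1 at 4.56, 3.01 and 1.63, Fgf18 at 3.5, 2.72 and 2.71, and Trem2 at 3.44, 1.96 and 2.79. Col1a1 was not called at 28 days (adjusted p = 0.196). For none of these genes was a difference in effect called between 14 and 7 days or between 28 and 14 days.

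**Figure D5:**
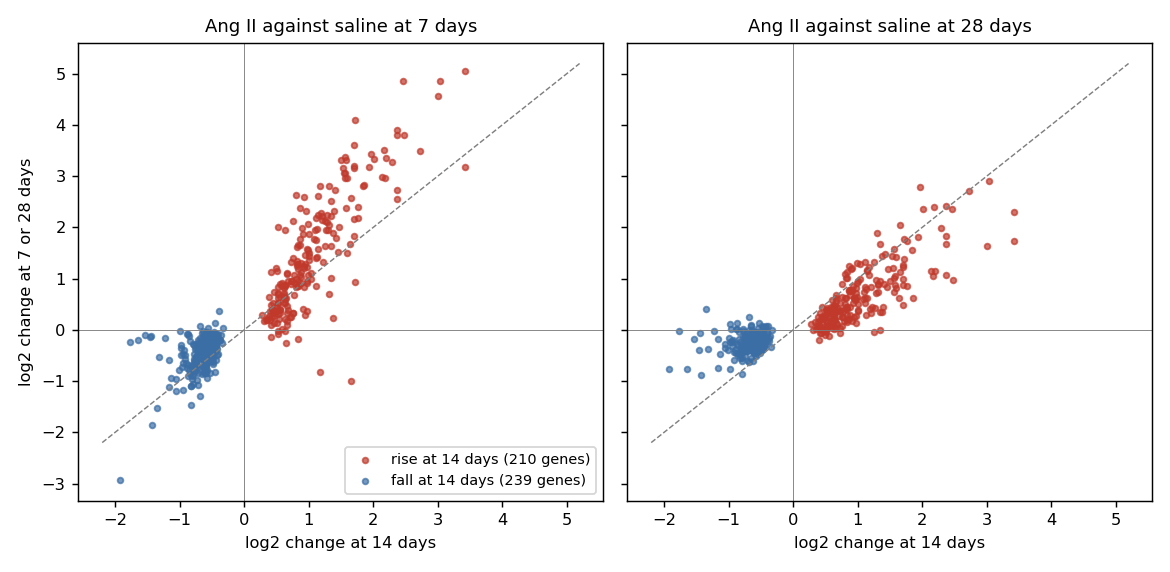
Log2 change of Ang II against saline at 7 days (left, y axis) and 28 days (right, y axis) against that at 14 days (x axis) for the 210 rises (red) and 239 falls (blue), with the line of equality dashed. Of the rises, 147 were larger at 7 days than at 14 days and 26 were larger at 28 days.

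The test of the difference itself called 191 genes between the effects at 14 and 7 days (1.02%). The 14-day effect was lower in 146 and higher in 45, and 16 of the 191 were also called at 14 days. Cell cycle genes made up 18 of the 146. Of 35 in that list 31 had risen at 7 days, with a median of 1.55, and 0 were called at 14 days, with a median of 0.39. Mki67, a proliferation marker, stood at 3.16 at 7 days and 0.86 at 14 days (difference -2.30, adjusted p = 0.0258). Of 20 chromaffin cell and sympathetic neuron genes 1 had a higher effect at 14 days, and of 16 Schwann cell and myelin genes 1. Among single genes Chgb, of secretory granules, stood at -3.88 at 7 days and 1.75 at 14 days (difference 5.63, adjusted p = 0.0479), and Mapt, Dusp26 and Erbb3 differed by 3.30, 3.09 and 2.55. Their 14-day values overlapped between groups except for Dusp26, and saline replicates 5 and 6 lay at the Ang II level in Chgb, at 6.91 and 7.03. Without single aortas the count ran from 59 to 1018, and with array weights it was 2249. Between 28 and 14 days limma called 0 genes, with 1358 at an unadjusted p under 0.05.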

How the data were processed

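Each scanner file holds, per the file headers, the fluorescence intensity of 45018 spots and their local background in both channels. The submitters' processing notes name Agilent Feature Extraction 9.5.3.1 as the software with which the authors made them. A log10 ratio of aorta over reference from the same software stands beside, per the file headers. A series table that the authors deposited gives log2 ratios. Set against the scanner's log10 ratio the table runs in the same direction, and any further normalization is not given in the sources used here. Both served only as alternatives.

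Background was subtracted with normexp (offset 50), log2 ratios were normalized within arrays by loess, and values the software marked as outliers or non-uniform were left out, which touched 134 genes. Probes above background on at least 3 of the 35 arrays were kept, 1 per gene, the one of highest mean intensity, and named through a RefSeq table (24375 of 41174 probes by accession, 6301 by symbol, 2426 by synonym, 8072 by the file's own name). All 35 arrays entered a single limma model of 7 group means (28 residual degrees of freedom), in R 4.3.3 with limma 3.58.1. A mean over 5 or 6 arrays limits the precision, and a dim gene has a compressed ratio. On simulated data for the 14-day comparison, with 18671 genes, 80% of 100 genes changed by 1 on the log2 scale and 95% of 100 changed by 2 were called, with 11 false calls. The simulated noise was independent between genes and held no array that stood apart, so these rates may not carry over to the real aortas.

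Groups came from the sample titles. Named genes were the 16 largest non-overlapping rises and falls with RefSeq symbols, up to 6 called members of each of the 51 gene lists, a fixed set of aortic genes, and the 8 largest differences between times. Some of these genes are not reported here. The gene lists and their members were chosen with earlier results of these data known. Alternatives were the ratio, scaling, filter, probe choice, blocks, weights, covariates and each aorta left out.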

Additional observations from a re-analysis of the deposited data

Results flagged for a closer look

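In groups of this size chance sets apart about 1 in 20 groups. The rule was run on both groups of every reported named gene and of each of the 51 lists. It flagged 14 groups, a yield that chance alone could give. Saline replicate 4 stood above the other saline aortas in Ccl2 at 0.71, Il6 at 0.14 and Il1b at 3.43. Saline replicate 6 stood above them in the list levels of MHC class II and costimulation genes at 2.08, of B cells and plasma cells at 1.91 and of T cells at 2.04, and in Spon2 at -1.51. Saline replicate 3 was the highest in erythroid genes at 3.32 and in platelet genes at 2.68. Among the Ang II aortas replicate 1 was far below the others in Spon2 at -1.88. Replicate 5 was low in Cnn1 at 3.79, in Mmp9 at -1.72 and in insulin-like growth factor binding proteins at 0.69. Replicate 2 was high in adrenal cortex genes at 1.86.

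The effect of Ang II differed between 14 and 7 days by a test of the difference in 11 named genes. It was higher at 14 days in Chgb by 5.63, Mapt by 3.3, Dusp26 by 3.09, Ufsp1 by 2.78, Ttc25 by 2.63 and Erbb3 by 2.55. It was lower at 14 days in Lox at -2.57, Mki67 at -2.3, Il33 at -1.64, Piezo2 at -1.53 and Fbln2 at -1.51. Of these 11 genes Piezo2, Il33, Fbln2 and Ttc25 were also called at 14 days. Ttc25, a protein of motile cilia, rose by 1.65 at 14 days (adjusted p = 0.0482) and stood at -0.99 at 7 days (adjusted p = 0.132).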

How the results depend on the processing

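The 449 genes called at 14 days became 121 with median centring, 6 with scale normalization, 119 on only the 11 arrays at 14 days, 180 and 3 within scan days 1 and 2, 772 with array weights and 213 with neighbouring tissue covariates. With each aorta left out in turn the count ran from 73 to 719. The replicate number as a block gave 1163. Same-numbered aortas had correlations of deviations from 0.04 to 0.6, and 3 of 5 Ang II aortas matched their own number best, so the numbers were not taken as pairs. The count stayed within 1.5 times under the other settings, from 317 with slide as a block to 580 with the series table, and at 434 without Ang II replicate 2 and saline replicate 6, a choice made after the data were seen.

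The 191 genes that differed between 14 and 7 days became 30 with median centring, 13 with scale normalization, 28 with slide as a block, 82 with scan day as a block and 2249 with array weights, and ran from 59 to 1018 with single aortas left out. The count between 28 and 14 days was 0 under every setting run. No called named gene changed sign, which was likely beforehand because these genes were called on the same arrays. Over the 97 named genes and all settings, 536 values lost a call, 18 gained one and 50 uncalled values changed sign. The cause of these shifts was not tested. Signal over background limits Fbn2, Fgf13, Mmp12 and the kidney tubule genes.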

Other observations

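Among 17 clock genes 3, named after their values were seen, separated the groups without passing the test. Over all genes 3.27% did not overlap between groups. The repressors Nr1d1 and Nr1d2 stood at -1.45 (adjusted p = 0.054) and -1.62 (adjusted p = 0.0675), and the output factor Dbp at -0.86 (adjusted p = 0.502). Nr1d1 ran from 0.51 to 1.53 in saline and read -0.6, 0.22, 0.056, -1.16 and -1.31 in Ang II, and none of these 3 genes overlapped between groups. The clock list had 0 calls among 17, 6 members with a change above 0 and a median of -0.18. The hour at which each aorta was taken is not given in the sources used here, and its part was not tested.

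Lum, a proteoglycan that binds collagen fibrils, stood at 1.84 (adjusted p = 0.0669) without overlap, and H19, an imprinted non-coding RNA, at 0.99 (adjusted p = 0.0584). Kap, an androgen-regulated gene of kidney tubule, had the largest difference among kidney genes, -3.61 (adjusted p = 0.0527). It read 2.37, 6.69, 5.99 and 5.72 in saline replicates 1 to 4, 0.11 and 1.89 in saline replicates 5 and 6, and from -0.0089 to 0.61 in Ang II. Pln, which restrains the calcium pump Atp2a2 in heart and slow muscle, read 5.75 in saline replicate 1, from 0.57 to 2.65 in the other saline aortas and from 0.066 to 1.19 in Ang II (adjusted p = 0.0856).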
